A study of Mus musculus with 6 samples.

Results

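The 10 heat shock chaperone genes followed here are Hspa1a, Hspa1b, Hspa8, Hsph1, Dnajb1, Dnaja1, Hsp90aa1, Bag3, Hspb1 and Cryab. They were picked by gene symbol from a table of 32179 genes, and 10 of the 10 symbols were present and abundant enough to be tested among 12735 genes. None of the 10 passed the test between smooth muscle cells depleted of GPRC5C and control cells, and neither did Gprc5c, the targeted gene. Hspa8, the constitutive HSP70, stood at 83.6% of its control level with no overlap between the groups, which 4.91% of all tested genes also showed. It had the smallest p of the 10 in the fit without a block, and Bag3 had it when libraries were paired by number. Libraries are numbered 1 to 3 in each group, and 7 of the 10 genes were lowest in number 2 of both groups.

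The cells were vascular smooth muscle cells sorted from skeletal muscle of male C57BL6J mice aged 8 to 24 weeks. All mice received tamoxifen, and all carried the mTmG reporter, in which Cre recombination turns on EGFP, so that EGFP-positive cells could be sorted. The 3 iSM-G5C-KO libraries came from mice with induced depletion of the orphan receptor GPRC5C in smooth muscle. The 3 control libraries are labelled wild type, although the strain label of every sample, controls included, says Gprc5c-floxed. Which promoter drives Cre, how many mice stand behind a library and which exons were deleted is not stated in the sources used here. Muscle was digested with collagenase and dispase for 30 min at 37 °C, and cells carrying CD31, CD45 or Ter119 were depleted before sorting, by the same protocol in both groups.

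Heat shock proteins hold unfolded proteins in solution and help them fold. HSP70 binds exposed hydrophobic stretches in a cycle of ATP hydrolysis, which J-domain proteins (HSP40) start and nucleotide exchange factors such as HSP110 and the BAG proteins end. HSP90 takes over late folding steps, and small heat shock proteins bind early unfolding intermediates without ATP. The inducible members are transcribed when heat shock factor HSF1 binds arrays of inverted GAA units, and in muscle BAG3 and the small heat shock proteins protect the contractile and desmin filaments. Warm enzymatic digestion of tissue is itself known to raise inducible heat shock and immediate early transcripts.

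The promoters of Hspa1a, Hspa1b, Hspb1 and Hsph1 are shown as examples that hold pairs of inverted GAA units. Those of Hspa1a and Hspa1b also show how alike these neighbours on chromosome 17 are. The 250 bases before the transcription start follow, 5′ to 3′ on the gene's strand, from RefSeq on GRCm38.p6. Capitals mark a pair of inverted GAA units, GAANNTTC or TTCNNGAA. They lie at chr17:34972157-34972406 (minus strand) for Hspa1a, chr17:34959239-34959488 (minus) for Hspa1b, chr5:135887669-135887918 (plus) for Hspb1 and chr5:149636337-149636586 (minus) for Hsph1.
Hspa1a: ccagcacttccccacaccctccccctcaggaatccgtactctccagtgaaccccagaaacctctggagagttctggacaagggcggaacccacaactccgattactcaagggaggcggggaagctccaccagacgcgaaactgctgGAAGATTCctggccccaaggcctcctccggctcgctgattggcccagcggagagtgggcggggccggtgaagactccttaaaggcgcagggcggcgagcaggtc
Hspa1b: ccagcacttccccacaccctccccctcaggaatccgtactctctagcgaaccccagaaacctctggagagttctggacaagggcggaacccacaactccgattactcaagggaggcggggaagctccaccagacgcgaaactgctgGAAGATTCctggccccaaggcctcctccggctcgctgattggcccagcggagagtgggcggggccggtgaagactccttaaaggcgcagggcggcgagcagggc
Hspb1: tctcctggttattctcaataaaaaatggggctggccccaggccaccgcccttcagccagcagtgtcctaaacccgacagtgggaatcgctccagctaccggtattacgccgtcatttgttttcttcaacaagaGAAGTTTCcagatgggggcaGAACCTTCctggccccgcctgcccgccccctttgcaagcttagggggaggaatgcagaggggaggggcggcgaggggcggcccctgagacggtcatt
Hsph1: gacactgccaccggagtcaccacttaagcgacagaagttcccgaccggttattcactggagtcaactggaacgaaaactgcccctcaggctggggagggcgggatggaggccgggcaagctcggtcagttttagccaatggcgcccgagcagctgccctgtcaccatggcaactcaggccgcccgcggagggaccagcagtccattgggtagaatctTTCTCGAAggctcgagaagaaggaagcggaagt

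The Hspa1a and Hspa1b sequences were identical at 247 of 250 positions, and both hold GAAGATTC at 104 bases before the start. Hspb1 holds matches at 117 and 97 bases before the start. Windows of 300 bases (250 before to 50 after the start) were on hand for 7 members, Hspa8, Hsp90aa1 and Cryab being the others. Among these 7, which had 11 windows, a match to GAANNTTC or TTCNNGAA was found in 6 (both forms read the same on either strand). Of all 32851 such promoter windows, 15.1% hold one, a share of windows and not of genes, so the 2 figures differ in basis. Dnaja1 held a match in 1 of its 3 windows. The member without a match was Dnajb1, in 2 windows. Hsph1 alone held the longer form of 3 units, TTCTGGAAAGTTC, 16 or 37 bases downstream of its 2 annotated starts (chr5:149636288-149636300), and 0.603% of all windows hold a run of 3 alternating units (a shorter form extended by 1 more unit after any 2 bases, either strand), which overlaps the shorter forms. Such a match describes letters and does not show that a factor was bound in these cells.

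Library totals lay between 2030819 and 2216011 normalised counts, and the low values point to an estimated 1481186 to 2935114 reads per library. Each member was supported by an estimated 116 to 1412 reads in a library, which gives a counting SD of 2.66% to 9.28% of the value, before any variation between animals or preparations. Control library 3 stood apart, with 29707 genes above 0 against 20481 to 21179 in the others. The targeted gene, Gprc5c, had values of 428, 532 and 497 in the controls numbered 1, 2 and 3, against 328, 305 and 360 in the KO libraries of those numbers, so that every KO library lay below every control. The KO libraries kept 68.2% of the control mean, with a 2-sided exact permutation p of 0.1, which is the lower limit for 3 against 3. In the limma fit used for the members, Gprc5c had an adjusted p of 0.999, and of 0.142 with the library number as a block. As the fit did not call the targeted gene, a gene that it does not call is not shown to be unchanged. Smooth muscle markers were abundant, with Myh11 and Mylk at means of 4547.33 and 2368 normalised counts in controls. Markers of other cells were read as well. Summed over each list, 18 skeletal muscle fibre genes, Ttn and Myh4 highest, lay between 1897 and 4551 in controls and between 2598 and 9935 in KO libraries. Much of the highest sum was Ttn, at 868 in control library 3 and 5386 in KO library 3. The median log2 difference of these 18 genes in number 3 was -0.024. The 12 endothelial genes (Esam and Eng highest) summed to between 873 and 1388 in controls, against 928 and 1775 in KO libraries. In the same order, 10 pericyte genes (Notch3 and Abcc9) lay between 10515 and 16157 against 11186 and 18700. The 12 leukocyte genes (Lyz2 and Csf1r) lay between 119 and 496 against 124 and 651. Sums of 12 fibroblast genes (Col3a1 and Col1a1 highest) ran from 8013 to 12262 against 6900 to 11294, and those of 8 satellite cell genes (Des and Vcam1) from 929 to 952 against 905 to 1020, most of it Des, which is also a smooth muscle marker. No marker in these lists was at 0 in all 6 libraries.

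**Figure D1:**
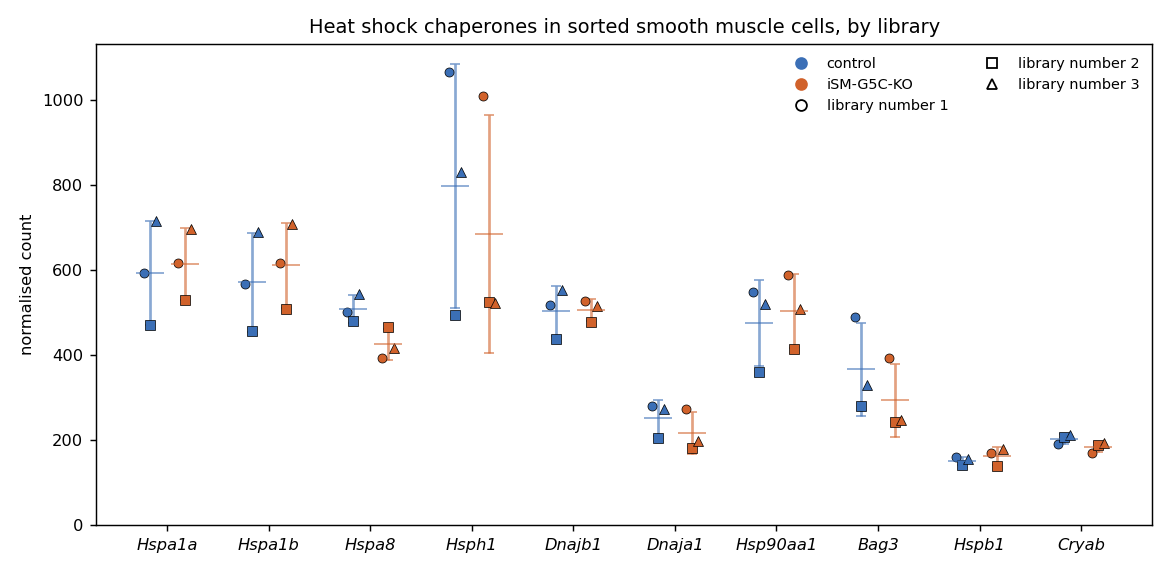
Normalised counts of the 10 genes in each library (y axis, from 0), control in blue and iSM-G5C-KO in orange, with the library number as the symbol, the group mean as a bar and the SD as whiskers (n = 3). The groups overlap for 9 genes, and for Hspa8 every KO library (392 to 465) lies below every control (479 to 543).

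Hspa1a and Hspa1b encode the stress-inducible HSP70, almost absent from unstressed cells of most tissues. Hspa1a (ENSMUSG00000091971, chromosome 17, 34969190 to 34972156, minus strand, GRCm38) had 593, 470 and 715 normalised counts in the controls numbered 1, 2 and 3, against 617, 528 and 697 in the KO libraries of those numbers, the order used throughout. Hspa1b (ENSMUSG00000090877, chromosome 17, 34956436 to 34959238, minus strand) was at 566, 455 and 690 in controls, against 615, 509 and 707 in the KO group. In both genes and both groups, library 2 was lowest and library 3 highest, and the groups overlapped throughout. The log2 difference, KO minus control, was 0.06 for Hspa1a (95% interval -0.36 to 0.49) and 0.11 for Hspa1b (-0.33 to 0.55), each with an adjusted p of 0.999 from limma.

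The values of Hspa1a and Hspa1b are best read as a pair. Of the 50-base stretches of the Hspa1a transcript (2967 bases), 58.8% occur letter for letter in that of Hspa1b (2803 bases). A read that lies wholly within such shared sequence cannot be assigned by its letters. The sources used here do not say how the authors counted such reads, nor whether the counting used strand, which bears on the overlapping genes named below. The ratio of Hspa1a to Hspa1b lay between 0.986 and 1.05 in the 6 libraries. A predicted gene on the opposite strand, Gm20481, overlaps Hspa1a over 2225 bases and was at 12 to 27.

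Hspa8, the constitutively made HSP70 that carries most housekeeping folding, uncoats clathrin vesicles and takes part in chaperone-mediated autophagy, was at 502, 479 and 543 in controls, against 392, 465 and 417 in the KO group (ENSMUSG00000015656, chromosome 9, 40800984 to 40805200, plus strand). All 3 KO libraries lay below the lowest control, although the KO library numbered 2 came close, with 465 against 479 in the lowest control. The means were 508 ± 32.4 and 424.67 ± 37.1 (SD, n = 3 each), so that the KO libraries stood at 83.6% of the control level. The log2 difference was -0.26 with a standard error of 0.12 and a 95% interval of -0.53 to 0.02, short of the threshold over all genes (limma, adjusted p = 0.999, unadjusted p = 0.0610). Hspa8 was the only member whose groups did not overlap, with its KO libraries below. Over all tested genes, the groups did not overlap in 4.91%, and every KO library lay below every control in 2.21%. Inside the gene lie 3 small nucleolar RNA genes, Snord14c, Snord14d and Snord14e, whose values ran from 17 to 32.

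Set against Hspa8 in the same library, the inducible pair stood higher in the KO library of every number. The sum of Hspa1a and Hspa1b was 2.31, 1.93 and 2.59 times the value of Hspa8 in controls, against 3.14, 2.23 and 3.37 times in the KO group. The 2 groups overlapped in this ratio, since KO library 2 lay below control libraries 1 and 3, and it was not tested. Hspa8 was itself lower in the KO library of every number, so the ratio in part repeats that difference and is no separate result. In number 3 the pair was near level, with log2 differences of -0.037 for Hspa1a and 0.035 for Hspa1b.

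Hsph1 encodes HSP110, which releases ADP from HSP70 and keeps aggregates dissolved. It was the most variable member, at 1066, 494 and 830 normalised counts in controls and 1008, 524 and 521 in KO libraries (ENSMUSG00000029657, chromosome 5, 149614287 to 149636338, minus strand). Both libraries numbered 1 were high and both numbered 2 low, while in number 3 the control was high and the KO library low. Within-group SD on the log2 scale was 0.56, the widest of the 10 genes, and the highest library held 2.16 times the lowest. The log2 difference was -0.22 with a 95% interval of -1.03 to 0.58 (limma, adjusted p = 0.999). Its sign turned to 0.02 when control library 1 was left out.

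Bag3, a nucleotide exchange factor that ties HSP70 to small heat shock proteins and to selective autophagy of damaged filament proteins, was at 489, 280 and 329 in controls, against 393, 241 and 246 in the KO group (ENSMUSG00000030847, chromosome 7, 128523616 to 128546981, plus strand). The KO library was the lower one in each number, by -0.31, -0.22 and -0.42 on the log2 scale in numbers 1, 2 and 3. As the controls themselves spanned 280 to 489, the groups overlapped. The log2 difference was -0.32 with a standard error of 0.26 (limma, adjusted p = 0.999). It ran from -0.087 without control library 1 to -0.55 without KO library 1. An unclassified transcript on the same strand, 2610306O10Rik, overlaps Bag3 over 612 bases and was at 15 to 54.

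The J-domain proteins Dnajb1 and Dnaja1 deliver clients to HSP70 and start its ATP hydrolysis. Dnajb1, the stress-inducible one, was at 518, 437 and 552 in controls, against 526, 477 and 514 in the KO group (ENSMUSG00000005483, chromosome 8, 83608193 to 83612653, plus strand). The KO range lay inside that of the controls, and the log2 difference was 0.02 with a 95% interval of -0.28 to 0.31 (limma, adjusted p = 0.999). Dnaja1 was at 279, 204 and 273 in controls, against 273, 180 and 197 in the KO group (ENSMUSG00000028410, chromosome 4, 40722480 to 40737149, plus strand). It was lower in the KO library of each number, least in number 1, with a log2 difference of -0.23 and a 95% interval of -0.69 to 0.23 (limma, adjusted p = 0.999). This ran from -0.11 without KO library 2 to -0.40 without KO library 1. Smu1, on the opposite strand, overlaps Dnaja1 over 608 bases and was at 162 to 199.

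Hsp90aa1, the inducible cytosolic HSP90, was at 547, 359 and 520 in controls, against 587, 413 and 508 in the KO group (ENSMUSG00000021270, chromosome 12, 110690605 to 110696395, minus strand). Library 2 was the lowest of each group, and the log2 difference of 0.09 (95% interval -0.38 to 0.56; limma, adjusted p = 0.999) was smaller than the step from library 1 to library 2 in either group (-0.61 and -0.51).

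Hspb1 and Cryab are small heat shock proteins. Hspb1, HSP27, which binds actin filaments and is phosphorylated downstream of p38 in smooth muscle, was at 159, 140 and 154 in controls, against 168, 139 and 179 in the KO group (ENSMUSG00000004951, chromosome 5, 135887919 to 135889563, plus strand). Cryab, αB-crystallin, a chaperone of desmin, was at 190, 207 and 212 in controls, against 169, 187 and 193 in the KO group (ENSMUSG00000032060, chromosome 9, 50751325 to 50756636, plus strand). The Cryab groups overlapped only in that KO library 3 exceeded control library 1, and the KO library was lower in each number, by -0.17, -0.15 and -0.13 on the log2 scale. Log2 differences were 0.09 for Hspb1 (95% interval -0.23 to 0.42) and -0.15 for Cryab (-0.42 to 0.12), each with an adjusted p of 0.999 from limma. Within-group SD on the log2 scale was 0.092 for Cryab, the narrowest of the 10 genes, and 0.15 for Hspb1. Hspb2, on the opposite strand, overlaps Cryab over 1030 bases and was at 52 to 76.

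**Figure D2:**
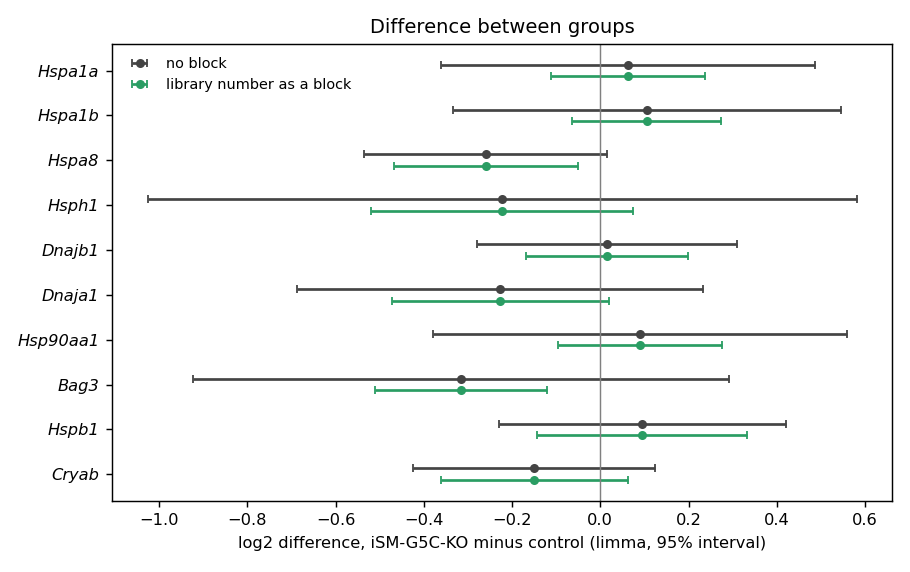
Log2 difference of each gene, iSM-G5C-KO minus control (x axis), with its 95% interval from limma, without a block in dark grey and with the library number as a block in green. Every interval without a block holds 0, and with the block those of Hspa8 and Bag3 do not, while their adjusted p over all genes was 0.373 and 0.261.

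Gene by gene, 5 of the 10 members were higher and 5 lower in the KO mean, with a median log2 difference of -0.067, beside 0.0011 over all 12735 tested genes, of which 50.2% were higher. Limma called 0 of 10 members, and over all genes it called 0 (0%). At an unadjusted p under 0.05 there were 0 members and 1.81% of all genes. With the library number as a block in the fit, 0 members passed the adjusted threshold and 1 gene of 12735 did (0.00785%). In that limma fit 2 members were lower at an unadjusted p under 0.05, Hspa8 (adjusted p = 0.373) and Bag3 (adjusted p = 0.261), where 10.2% of all genes lay under it and 5.96% were lower. The KO library was the lower one in all 3 numbers for 4 members, Hspa8, Bag3, Dnaja1 and Cryab, a pattern seen in 15.4% of all genes, and the higher one in all 3 for Hspa1b, a pattern seen in 14.0%. Every member had a mean of at least 100. Among the 5869 tested genes with such a mean, 45.8% were higher and the median log2 difference was -0.014. Of these genes, 19.8% were lower and 13.5% higher in all 3 numbers.

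The libraries numbered 2 stood lowest in both groups. The mean of the 10 genes' departures from their own means, on the log2 scale, was 0.18, -0.22 and 0.16 in controls, against 0.12, -0.21 and -0.037 in the KO group. Library 2 was the lowest of the controls in 9 members, all but Cryab, and the lowest of the KO libraries in 7, all but Cryab, Hspa8 and Hsph1. It was lowest in both groups for 7 of 10 members and for 7.65% of all tested genes. Summed values of the members were 4909, 3525 and 4818 in controls, against 4748, 3663 and 4179 in the KO group. The 12 leukocyte markers shared the low of number 2, with sums of 481, 119 and 496 in controls, against 367, 124 and 651 in the KO group. In both groups these markers were highest in library 3, while the members' mean was highest in library 1. The part of leukocytes in the low chaperone values of number 2 was not tested. In bulk RNA, fewer cells of a type and less RNA per cell cannot be told apart.

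**Figure D3:**
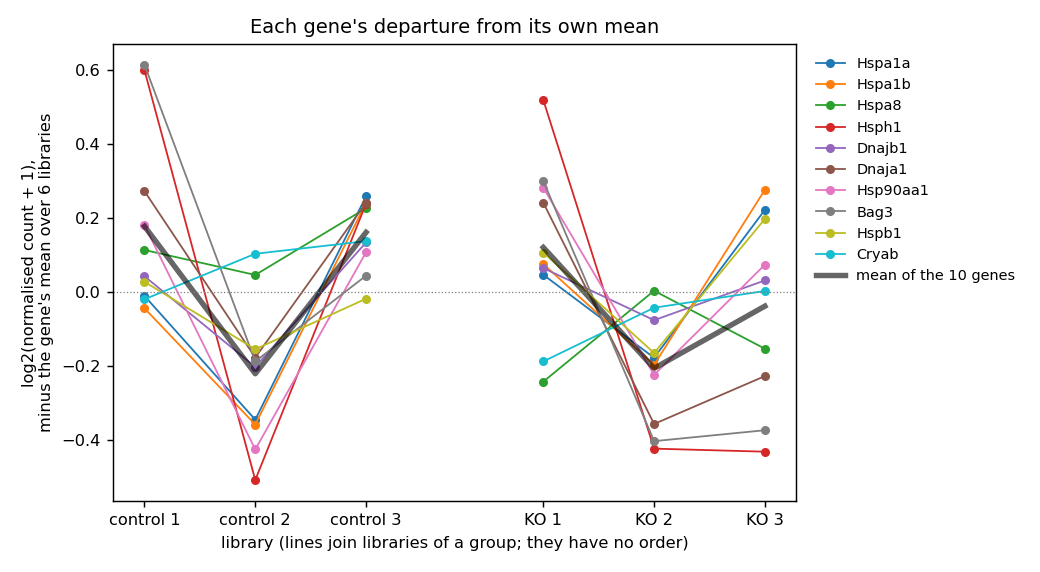
Departure of each gene's log2(normalised count + 1) from its own mean over the 6 libraries (y axis), by library (x axis); lines join the libraries of a group only to make a gene easier to follow, and the thick line is the mean of the 10 genes. The mean lies at -0.22 in control library 2 and at -0.21 in KO library 2, and Hspa8 and Cryab do not share that low.

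Members did not all share this pattern equally. Within-group SD had a median of 0.26 over the members, beside 0.26 over all tested genes and 0.19 over the 5869 tested genes with a mean of at least 100. Between libraries 1 and 2, the fold was 2.16 in controls and 1.92 in KO libraries for Hsph1, and 1.75 and 1.63 for Bag3. For Hsp90aa1 it was 1.52 and 1.42, for Dnaja1 1.37 and 1.52, for Hspa1a 1.26 and 1.17, and for Hspa1b 1.24 and 1.21. Smaller folds were seen for Dnajb1 (1.19 and 1.10) and Hspb1 (1.14 and 1.21). Hspa8 stood at 1.05 and 0.843 and Cryab at 0.918 and 0.904. The genes whose pattern over the 6 libraries was most like the mean of the members were Mrpl48, Cep350, Rbm12, Taf1d and Trnau1ap. Their root mean square differences from it were 0.050 to 0.064 on the log2 scale over 6 libraries, and those of the members themselves were 0.086 (Dnajb1) to 0.32 (Hsph1). A gene level over the 6 libraries would lie at 0.166. Hspa1b, Cryab, Hspa8, Bag3 and Hsph1 lay farther than that from the mean pattern.

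Compared per length, most members were abundant transcripts of these cells. Mean values per kb of the longest principal transcript in controls were 212 for Hspa8, 210 for Hsph1, 203 for Hspa1b and 199.8 for Hspa1a. Next came Cryab at 182, Dnajb1 at 168, Hspb1 at 167, Hsp90aa1 at 145 and Bag3 at 143, and Dnaja1 followed far below at 44.8. Among the first 9, no neighbours in this order differed beyond their spread between libraries, while Dnaja1 lay below Bag3 in every control. The first 9 lay above 94.3% or more of the tested protein-coding genes, and Dnaja1 above 61.3%. The order rests on the length used, since per kb of all annotated exons Hspa1b (203) came first and Hspa8 stood at 118.

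Beyond the members, 10 lists of other chaperones and related genes were read from the same fit, and 0 of their genes passed limma's adjusted threshold, with or without the block. At an unadjusted p under 0.05 there were 0 of them without the block (1.81% of all genes) and 3 with it, Hspa12a, Hspb6 and Hspb7 (10.2% of all genes). Groups did not overlap for 3 of them, Ppid, Trap1 and Grpel2, where 4.91% of all genes showed this. The 10 lists held from 4 to 16 tested genes each, and some genes, such as Fkbp4 and Hspb8, were shared between lists. Among other HSP70 and HSP110 relatives, 7 of 8 were higher in KO libraries, with a median log2 difference of 0.12. Hspa12a, a distant HSP70 relative, averaged 350.33 in controls and 412.33 in KO libraries, Hspa14 86 and 98.3, and Hspa13, of the endoplasmic reticulum, 135 and 146. Of 14 other J-domain proteins, 9 were lower and 5 higher, with a median of -0.077. Dnajc2 averaged 99.3 and 115.67, Dnajb14 198 and 176.33, and Dnajb5 164.33 and 139. Of the HSP90 list (Hsp90ab1 and co-chaperones), 10 of 12 were higher by small amounts, with a median of 0.035. Ppid, a cyclophilin of the HSP90 machinery, was at 97, 85 and 92 in controls, against 102, 108 and 122 in the KO group, which do not overlap. Fkbp4, an immunophilin of steroid receptor complexes, was at 258, 281 and 261 in controls, against 269, 292 and 366 in the KO group. Cdc37, which brings kinases to HSP90, averaged 343 and 360.67.

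Of the small heat shock proteins outside the members, 3 of the 4 tested were lower, with a median of -0.27. Leaving out 1 library moved this median from -0.095 (without KO library 3) to -0.43 (without KO library 1). Hspb6, a target of cyclic nucleotide kinases in smooth muscle relaxation, was at 181, 172 and 163 in controls, against 173, 120 and 116 in the KO group. Hspb7, a small heat shock protein of heart and muscle, was at 177, 156 and 110 against 145, 115 and 76. Hspb8, the partner of BAG3, was at 212, 182 and 142 against 184, 163 and 123. All 3 were lower in the KO library of every number, a pattern of 15.4% of all genes, and for each the groups overlapped. Hspb2, the remaining gene, had a log2 difference of 0.13, and the member Hspb1 one of 0.09. Log2 differences of Hspb6, Hspb7 and Hspb8 were -0.36, -0.42 and -0.19, each with an adjusted p of 0.999 from limma. The 12 smooth muscle markers, of which 10 were lower in KO libraries (median -0.083), and the fibre markers, of which 16 of 18 were higher (median 0.24), moved beside them, and their part in these values was not tested.

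Regulators of the system were close to level. Of 8 BAG proteins and HSP70 regulators, 4 were higher and 4 lower, with a median of -0.0014. Hspbp1 averaged 58.3 in controls and 67.3 in KO libraries, Bag5 124.33 and 138.33, and Bag1 188 and 174.67. Of the heat shock factor list, 3 of 4 tested genes were higher, with a median of 0.097. Hsf2 averaged 85 and 74.7, and Hsbp1, a small protein that binds heat shock factor trimers, 118.33 and 133. Hsf4 averaged 12.7 and 17.7, but it was low and uneven, at 11, 11 and 16 in controls, against 22, 23 and 8 in the KO group. Among 16 other heat-inducible genes, 9 were higher and 7 lower, with a median of 0.016, and Dnajb4, another of the inducible HSP40s, averaged 355.33 and 324.67. The remaining folding machines had medians slightly above 0. They were 0.060 for the TRiC chaperonin and prefoldin (12 of 14 higher; Pfdn4 averaged 27 and 35, Pfdn5 107.33 and 121.33, and Pfdn6 57.3 and 67.3), 0.073 for mitochondrial chaperones (5 of 8 higher) and 0.11 for chaperones of the endoplasmic reticulum (12 of 14 higher). In the mitochondrial list, Trap1, the HSP90 of the matrix, was at 247, 262 and 276 in controls, against 229, 241 and 230 in the KO group, which do not overlap. Grpel2, an exchange factor of the matrix HSP70, was at 39, 37 and 33 in controls, against 47, 45 and 48 in the KO group, also without overlap, and Dnaja3 averaged 140.67 and 150. In the reticulum list, Hspa5 (BiP) averaged 677.33 and 750.33, Canx 588.33 and 635.67, and Manf 93.7 and 111.67.

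**Figure D4:**
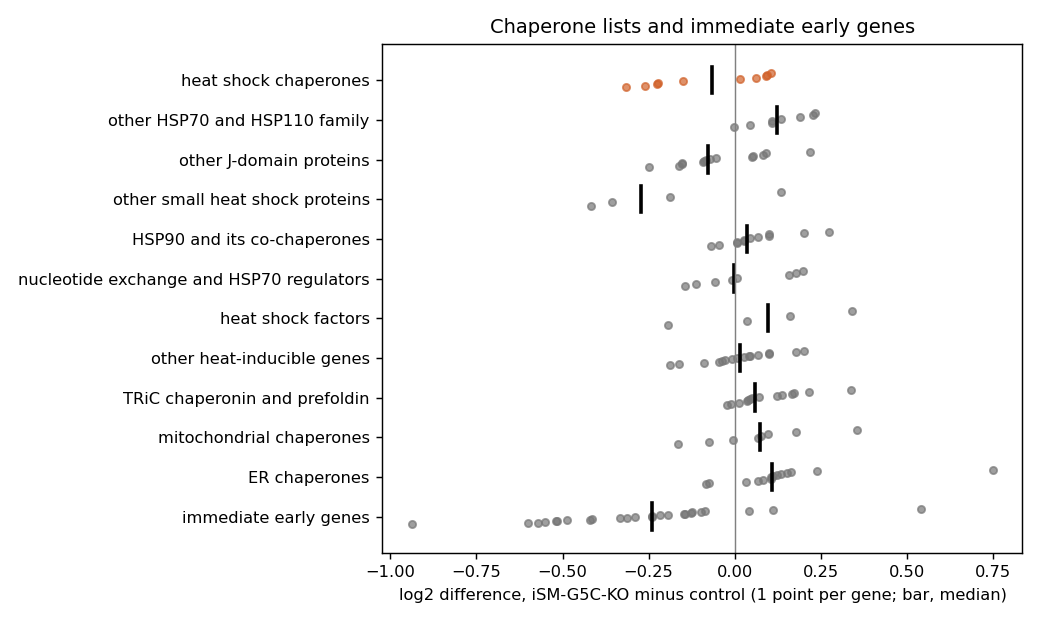
Log2 difference, iSM-G5C-KO minus control (x axis), of each tested gene in 12 lists (y axis), with the heat shock chaperones in orange at the top and a bar at each list's median. The medians run from -0.27 for the other small heat shock proteins to 0.12 for the other HSP70 and HSP110 genes, and 0 of the genes shown passed limma's adjusted threshold.

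Immediate early genes, which digestion and handling of tissue also induce, were lower in KO libraries in 22 of 25 cases, with a median log2 difference of -0.24, and 0 passed limma's adjusted threshold, with 2 at an unadjusted p under 0.05 (1.81% of all genes) and 14 with the block (10.2% of all genes). Beside them, 12 of 12 endothelial markers (median 0.31), 10 of 10 pericyte markers (0.19) and 16 of 18 fibre markers (0.24) had higher KO means, and their part in these values was not tested. Egr2, Fosb and Egr3, transcription factors of this group, averaged 133.67, 993 and 45 in controls, against 94, 752.33 and 31.3 in the KO group. In number 2 the summed value of these 25 genes was 14942 for the control but 10314 for its KO counterpart, the widest gap of the 3 numbers. In the same number, Hspa1a, Hspa1b, Dnajb1, Hsp90aa1 and Hsph1 were higher in the KO library than in the control. Hspa8, Dnaja1, Bag3, Hspb1 and Cryab were lower. Of the genes named from the other heat-inducible list, Hspb8 and Dnajb4 were lower there and Fkbp4 was higher. The median log2 difference of that list's 16 genes in number 2 was 0.063.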

How the data were processed

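The deposited values are used as a score: whole numbers per gene that the table's name calls normalised counts, which the authors rounded. The notes name Trimmomatic 0.39, STAR 2.6.1d, featureCounts 1.6.5 and DESeq2 1.18.1 with mm10 and GRCm38.p5, without their order; duplicate removal, strand use in counting and multi-mapping are not given in the sources used here. Per the labels' protocols, 5 ng of total RNA went into a stranded kit. Limma 3.58.1 in R 4.3.3 was fitted to log2(value + 1) over the 12735 genes with a mean of at least 10, with an intensity trend. The test was 2-sided and adjusted by Benjamini-Hochberg (threshold 0.05). The log2(value + 1) scale understates changes of low genes. A check of the fit on simulated data used larger changes than those of the members and no shared effect of library number. It does not cover changes as small as theirs. As no label says that libraries are separate animals, the p-values reflect only how these libraries vary, which may be technical. Estimated reads come from how often each low whole number occurs; whole reads were not recovered.

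Across genes, libraries with the same number deviated together from their group means (r = 0.59, 0.31 and 0.44, other pairs at most 0.16), so the numbers were taken as pairs. A group's deviations cancel out for each gene, so these correlations are tied to each other. The pairing comes from the data, and the p-values with the block do not allow for that choice. The members, lists, tests and naming rule were chosen with earlier results of these data known. Named were all members, Gprc5c, the 3 genes with the smallest p in each list (none passed), the 2 highest markers in each list of other cells (1 list is not reported here), and the 5 genes most like the members' mean pattern among 8292 with a mean of at least 50. Promoters are from RefSeq (GRCm38.p6), lengths and transcripts from GENCODE on GRCm38. Alternatives changed the pseudocount, filter, scaling, trend, block, weights and libraries.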

Additional observations from a re-analysis of the deposited data

How the results depend on the processing

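In 16 alternatives, 0 members passed the adjusted threshold, the lowest adjusted p of a member being 0.261 with the replicate block and limma. Hspa8, Bag3, Dnaja1 and Cryab were lower and Hspb1 higher in all 16. The count of changed genes was 0, and also 0 without any single library; it was 2 with sample quality weights and 1 with the replicate block. Dropping a whole number from the blocked fit gave 17 (number 1), 1 (number 2) and 0 (number 3), and the cause of this spread was not tested. Members at an unadjusted p under 0.05 numbered 2 with the block (2, 3 and 1 with number 1, 2 or 3 left out of it), 2 without KO library 1 and 1 without KO library 2. The median of the members, -0.067, was 0.068 with sample quality weights, 0.018 with the block and number 3 left out, and from -0.12 (without control library 2) to 0.032 (without control library 1) with 1 library left out. Hsph1 turned to 0.039 with sample quality weights and 0.0021 with the block and number 3 left out, and Dnajb1 to -0.040 with the block and number 2 left out. Leaving out 1 library gave -0.094 to 0.21 for Hspa1a and -0.047 to 0.25 for Hspa1b (below 0 without control library 2 or KO library 3), -0.54 to 0.023 for Hsph1 (above 0 without control library 1), and -0.082 to 0.086 for Dnajb1 and -0.100 to 0.22 for Hsp90aa1 (below 0 without control library 2 or KO library 1). The lists of J-domain proteins, HSP70 regulators, heat shock factors, heat-inducible genes and mitochondrial chaperones had medians on both sides of 0 across the alternatives. With no expression filter the median of all genes moved to -0.14, since low genes entered, and the members' median stayed at -0.067. Depth limits the lists more than the members, which had an estimated 116 reads or more in every library.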
